A study of Mus musculus with 18 samples.

Results

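The 9 genes of DNA damage and meiotic checkpoint signalling, Mdc1, Atr, Topbp1, Hus1, Atm, Chek1, Chek2, Brca1 and Trip13, were followed in the testes of mice homozygous for an allele of a meiotic transcription factor gene. The members were all probe sets annotated to 1 of these 9 genes alone, which gave 23 of the 45037 probe sets on the array, and 22 of the 23 were bright enough to be tested. The 15307 genes with a tested probe set of their own included all 9. Total RNA of whole testis was measured on Affymetrix mouse 430 2.0 arrays, on which a probe set is a group of short oligonucleotides that report 1 transcript. Mutants were homozygous for repro9 (repro9/repro9), an allele of Mybl1, which encodes the germ cell transcription factor A-MYB. They were set against wild-type animals, at an age of 17 or 14 days postpartum (dpp). The groups were repro9/repro9 at 17 dpp (5 arrays), wild type at 17 dpp (5 arrays), repro9/repro9 at 14 dpp (5 arrays) and wild type at 14 dpp (3 arrays). The younger age was picked as rich in early and mid pachytene cells, and the older one as rich in late pachytene and diplotene cells. The labels name no agent and no other allele.

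When DNA is broken, the kinase ATM responds to double-strand breaks and the kinase ATR to single-stranded DNA, and both pass the signal to effector kinases that hold the cell cycle. In pachytene spermatocytes the same machinery also marks chromosomes that have not synapsed. There BRCA1, TOPBP1 and MDC1 help to place ATR and phosphorylated histone H2AX on the X and Y chromosomes, whose genes are silenced, and cells that keep breaks or unsynapsed chromosomes are removed by a checkpoint.

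The promoters of Mdc1 and Atr, the 2 genes whose signal was lower in mutants at 17 dpp by the test used throughout, and of Topbp1, which joined them once arrays were blocked by the sets that their β-actin control signals form, are shown because the mutated gene encodes a DNA-binding factor. Each line gives 250 bases up to the annotated transcription start, 5′ to 3′ on the gene's strand, from RefSeq on GRCm38.p6. Capitals mark AACNG, the core that MYB proteins are known to bind, or its reverse complement. The windows lie at chr17:35841248-35841497 for Mdc1, chr9:95857347-95857596 for Atr and chr9:103305077-103305326 for Topbp1, all on the plus strand.
Mdc1: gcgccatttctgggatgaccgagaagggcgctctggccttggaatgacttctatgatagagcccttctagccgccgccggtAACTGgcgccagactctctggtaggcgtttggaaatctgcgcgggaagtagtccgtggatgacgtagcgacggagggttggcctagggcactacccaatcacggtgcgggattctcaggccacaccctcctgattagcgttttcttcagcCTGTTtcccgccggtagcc
Atr: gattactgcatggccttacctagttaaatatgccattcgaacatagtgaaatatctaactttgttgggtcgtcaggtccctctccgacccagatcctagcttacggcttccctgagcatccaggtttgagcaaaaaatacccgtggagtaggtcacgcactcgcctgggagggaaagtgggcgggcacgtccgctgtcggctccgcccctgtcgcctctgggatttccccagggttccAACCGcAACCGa
Topbp1: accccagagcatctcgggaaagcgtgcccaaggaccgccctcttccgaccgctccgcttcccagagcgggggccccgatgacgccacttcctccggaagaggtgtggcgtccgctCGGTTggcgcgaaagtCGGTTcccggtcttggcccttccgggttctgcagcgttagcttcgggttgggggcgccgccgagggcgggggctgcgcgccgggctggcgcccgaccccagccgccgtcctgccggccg
Mdc1 had AACTG starting 169 bases upstream of the start and CTGTT, the reverse complement of AACAG, at 19 bases. Atr had AACCG at 12 and again at 6 bases upstream, 1 base apart. Topbp1 had CGGTT at 135 and at 119 bases upstream. These matches are a description only, because AACNG on either strand occurred in 80.3% of all 32851 promoter windows of 300 bases (250 before and 50 after the start) and in 8 of the 9 genes, Trip13 being the exception. The stricter match AACGG, a case of AACNG, was in 17.4% of all windows and in those of Hus1 and Chek2. Of the cell cycle motifs of the CHR type, TTTGAA was in 17.9% of windows and among the 9 genes in that of Hus1, and TTCGAA was in 1.56% of windows and in those of Atr and Trip13. Both strands were searched for every motif.

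Signal is the intensity that the MAS5 algorithm computes per probe set, and differences are mutant minus wild type on the log2 scale with a standard error from limma. A gene counts as changed when its Benjamini-Hochberg adjusted p, over all 34764 tested probe sets, is under 0.05. The gene's brightest probe set stands for it unless another is named. Array medians lay between 88.7 and 149. The ratio of 3′ to 5′ β-actin control signal, which tells how far labelled RNA reaches toward its 5′ end, divided the hybridisations into 3 sets, a division that is in no label. It was 2.31 to 2.92 on the 7 arrays of set 1 (replicates 1 and 2 of the mutants of both ages and of the wild type of 14 dpp, with replicate 1 of the wild type of 17 dpp). It was 1.45 to 1.49 on the 4 arrays of set 2 (the rest of 14 dpp) and 103 to 125 on the 7 arrays of set 3 (the rest of 17 dpp). Each set held both genotypes, so values with the set as a block, and within sets, stand beside those of the plain group means. Mybl1 itself was below every wild-type array of its age on each mutant array, with a difference of −3.46 ± 0.45 at 17 dpp (adjusted p = 5.25e-05, limma) and −2.33 ± 0.52 at 14 dpp (adjusted p = 0.112). According to the series text 3 or more mice of each genotype were used, but no array is tied to 1 mouse, so p-values measure the spread between arrays.

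At 17 dpp, Mdc1 and Atr fell in the mutants and none of the other 7 genes passed the test in either direction. Among all tested genes 5.83% fell and 2.03% rose. Every mutant array lay below every wild-type array for the same 2 genes, an arrangement that 4.98% of all genes showed. No gene of the 9 had every mutant array above every wild-type array, which 2.05% of all genes had. In whole testis, fewer cells of a type and less RNA per cell cannot be told apart.

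Mdc1 encodes the mediator that binds phosphorylated H2AX and spreads the damage mark along chromatin. It has 1 probe set on the array and lies on chromosome 17. At 17 dpp its signal was 1306, 1288, 1073, 1335 and 1611 on the mutant arrays, against 2749, 4718, 4980.4, 3942 and 5661 on the wild-type arrays. The groups were well apart, and the lowest wild-type value came from the only wild-type array of set 1. The difference was −1.71 ± 0.21 (3.27-fold lower in mutants, adjusted p = 2.51e-05, limma, n = 5 each). It was −1.64 ± 0.17 with the set as a block. Within set 3 the difference was −1.86, and within set 1, with 2 mutant arrays and 1 wild-type array, it was −1.08 and just missed the threshold (adjusted p = 0.0518).

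Atr encodes the kinase that senses single-stranded DNA and, in spermatocytes, unsynapsed axes, and it lies on chromosome 9. At 17 dpp its brightest probe set gave 5416, 6174, 5041, 4781 and 6806 on the mutant arrays, against 8977, 14956, 14369, 10704 and 16305 on the wild-type arrays. No values overlapped, and the wild-type array of set 1 was again the lowest of its group. The difference was −1.19 ± 0.18 (2.28-fold lower in mutants, adjusted p = 0.000302, limma, n = 5 each). It was −1.15 ± 0.15 with the set as a block, −1.35 within set 3 and −0.63 within set 1, where it did not pass (adjusted p = 0.331). The call also ended when the 7 arrays of set 3 were left out (−0.63, adjusted p = 0.0793). The other 2 Atr probe sets, both much dimmer, gave −0.32 and −0.49 (adjusted p = 0.817 and 0.406), so the call rests on the brightest one, and the mean of the 3 gave −0.66 (adjusted p = 0.177).

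Topbp1 encodes the protein that switches ATR on, and it also lies on chromosome 9. At 17 dpp it gave 3230.2, 3508, 3104, 2497 and 4134 on the mutant arrays, against 3649, 4935, 4994, 4265 and 4325 on the wild-type arrays. Only the highest mutant and the lowest wild-type array overlapped, and they came from different array sets. The difference of −0.44 ± 0.17 did not pass the test (adjusted p = 0.148, limma). It did with the set as a block (−0.42 ± 0.14, adjusted p = 0.0411) and within set 3 (−0.54, adjusted p = 0.0466), and within set 1 it was −0.12. A second Topbp1 probe set gave a signal near the background of the arrays and a difference of 0.02 (adjusted p = 0.993).

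Hus1 encodes a subunit of the ring-shaped 9-1-1 clamp that TOPBP1 binds at damaged DNA, and its 2 probe sets disagreed. The brightest gave 769.6, 880.4, 532, 460.5 and 581 on the mutant arrays of 17 dpp and 794, 386, 638, 467 and 544 on the wild-type arrays. The groups overlapped over most of their range, with a difference of 0.19 ± 0.27 (95% interval −0.38 to 0.77, adjusted p = 0.747, limma). The dimmer probe set ran from 16.2 to 106 on the mutant arrays and from 94.6 to 183 on the wild-type arrays. Its difference was −1.14 (adjusted p = 0.167), or −1.25 with the set as a block (adjusted p = 0.0459), but on 2 of the 5 mutant arrays its signal was below the 40th percentile of that array (16.2 against 84.2, and 44.5 against 90.0).

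**Figure D1:**
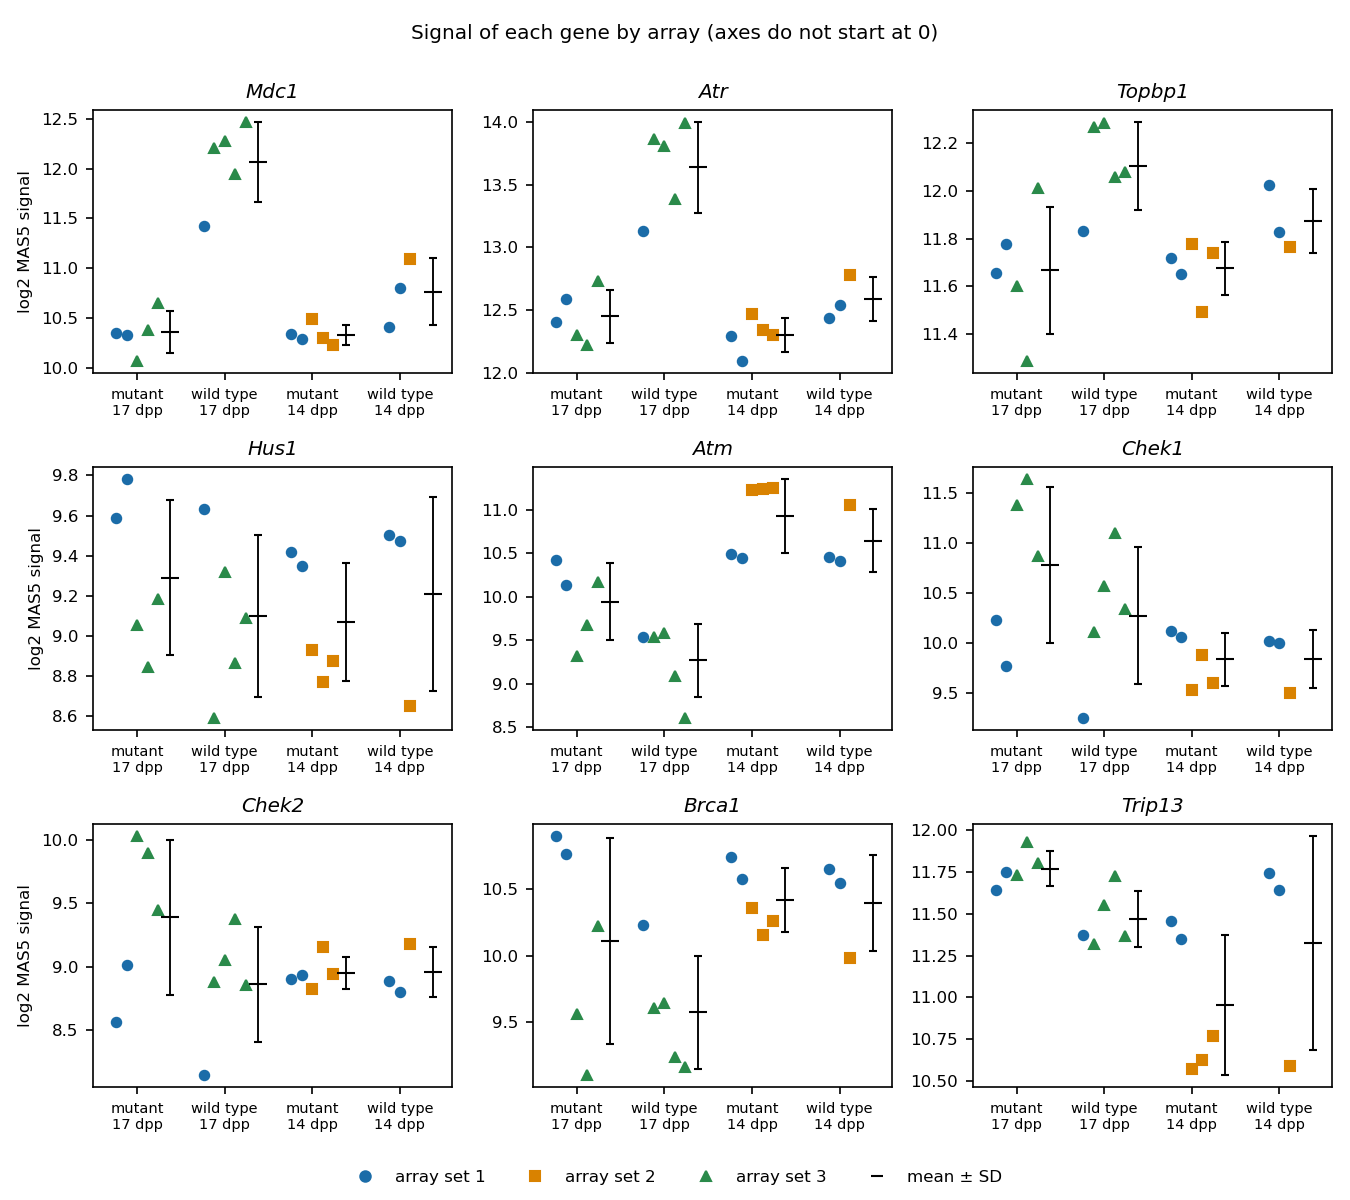
Log2 MAS5 signal of the brightest probe set of each of the 9 genes on each of the 18 arrays, by group. Symbols show the array set and black bars the group mean ± SD. For Mdc1 and Atr the 5 wild-type arrays of 17 dpp lie above all others, while Chek1 and Chek2 are split at 17 dpp mainly by array set.

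Among the kinases that stand beside or below ATR, all the differences at 17 dpp were positive and none passed the test on plain group means. Atm, the kinase of double-strand breaks, gave 1371, 1125, 638, 818 and 1151 on the mutant arrays, against 742, 742, 765, 546 and 389 on the wild-type arrays. The dimmest mutant array lay within the wild-type range, and the other 4 lay above it, with a difference of 0.67 ± 0.28 (adjusted p = 0.183, limma). A second probe set of similar brightness gave 0.72 (adjusted p = 0.288). With the set as a block the brightest one gave 0.58 ± 0.19 and passed (adjusted p = 0.0393), while within set 3 it gave 0.52 (adjusted p = 0.171) and within set 1 it gave 0.74 (adjusted p = 0.475).

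Chek1 encodes CHK1, the kinase that ATR activates to hold the cell cycle. It gave 1208, 877, 2672, 3203 and 1883 on the mutant arrays of 17 dpp and 610.2, 1107, 1521, 2209 and 1300.5 on the wild-type arrays. In each genotype the arrays of set 3 were brighter than those of set 1, and the groups overlapped. The difference was 0.51 ± 0.36 (adjusted p = 0.466, limma) on group means. It was 0.76 ± 0.19 (adjusted p = 0.00803) with the set as a block, with like values of 0.75 within set 1 and 0.77 within set 3 (adjusted p = 0.462 and 0.0465). Chek1 has the most probe sets of the 9 genes, and 3 others that were tested gave positive differences of 0.33, 0.54 and 1.23 that did not pass. The remaining one was not above the 40th percentile of any array of 17 dpp and was not tested.

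Chek2 encodes CHK2, the kinase that ATM activates, and has 1 probe set. It gave 378, 516, 1045, 954 and 697 on the mutant arrays of 17 dpp and 284, 473, 530.1, 666 and 463 on the wild-type arrays. Within each array set every mutant value lay above every wild-type value, although the groups overlapped as a whole. The difference was 0.53 ± 0.28 (adjusted p = 0.326, limma) on group means. It was 0.72 ± 0.17 with the set as a block (adjusted p = 0.00638), and 0.64 within set 1 and 0.75 within set 3 (adjusted p = 0.497 and 0.0315).

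Brca1 encodes a ubiquitin ligase that coats unsynapsed axes. Its brightest probe set gave 1914, 1746, 756, 549 and 1194 on the mutant arrays of 17 dpp and 1205, 778, 799, 604 and 573 on the wild-type arrays. The groups overlapped, and the highest values of both genotypes came from set 1. The difference was 0.54 ± 0.32 (95% interval −0.15 to 1.22, adjusted p = 0.377, limma), or 0.32 with the set as a block (adjusted p = 0.230). Its 3 other probe sets were dim and did not pass (differences of 0.36, 0.42 and 1.63).

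Trip13 encodes the ATPase that strips HORMA domain proteins from synapsed axes. It gave 3198, 3436, 3393, 3892 and 3571 on the mutant arrays of 17 dpp and 2647, 2558, 2997, 3384 and 2643 on the wild-type arrays. Of the wild-type arrays 1 reached into the mutant range, and within each array set the genotypes did not overlap. The difference of 0.30 ± 0.23 did not pass (95% interval −0.20 to 0.80, adjusted p = 0.514, limma), nor did it with the set as a block (0.33 ± 0.12, adjusted p = 0.0554). The 2 dimmer probe sets gave 0.34 and 0.92 and did not pass.

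**Figure D2:**
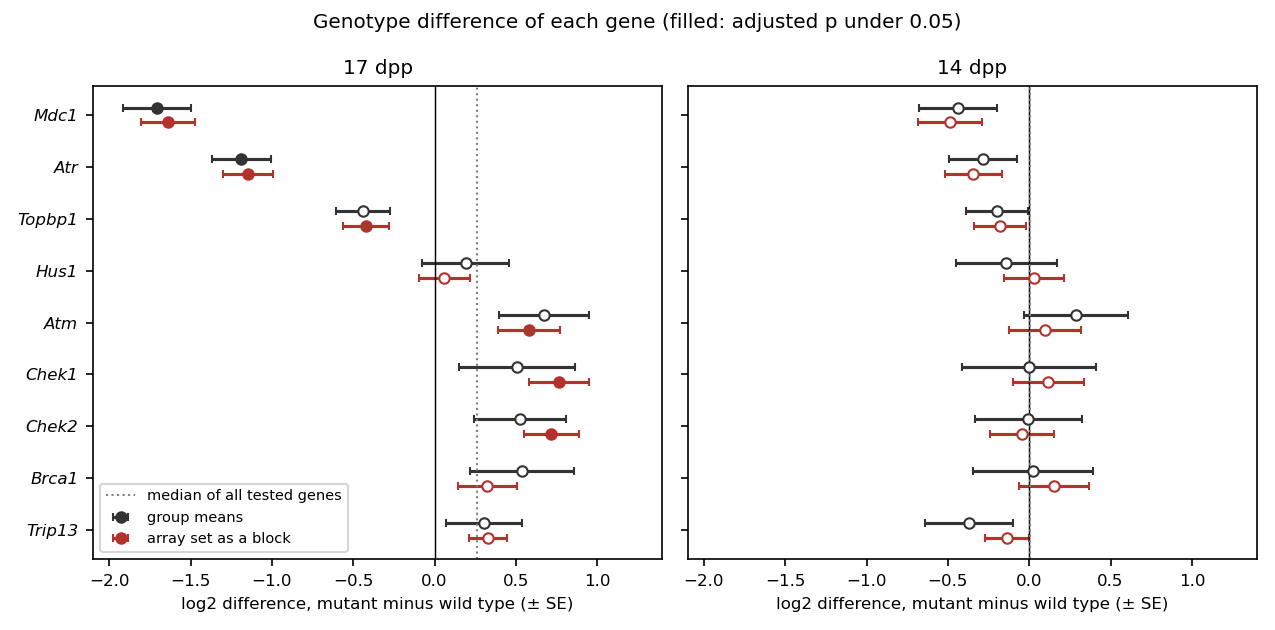
Log2 difference in signal, mutant minus wild type, of each of the 9 genes at 17 dpp (left) and 14 dpp (right), with standard errors, from group means (black) and with the set as a block (red). Filled symbols passed the test, and the dotted line is the median of all tested genes, 0.26 at 17 dpp and 0.00 at 14 dpp.

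With the set as a block, 6 of the 9 genes passed at 17 dpp, Mdc1, Atr and Topbp1 lower and Atm, Chek1 and Chek2 higher. In that fit 25.9% of all tested genes passed, 11.4% lower and 14.4% higher. Within set 3 alone 5 of the 9 passed, Mdc1, Atr and Topbp1 lower and Chek1 and Chek2 higher, beside 8.67% of all genes lower and 7.16% higher. Within set 1 none of the 9 passed, beside 4.08% lower and 0.235% higher. Every mutant array lay below every wild-type array of its own set for Mdc1, Atr and Topbp1, which held for 8.31% of all genes, and above it for Chek2 and Trip13, which held for 8.64%. The positive differences have to be read beside the median of all tested genes at 17 dpp, which was 0.26 on the MAS5 scale and 0.12 when every array was set to a common median. The median of the 9 genes was 0.30, with 3 of 9 negative, and it was 0.16 on the common median. Mdc1 and Atr stayed negative and past the threshold under both other scalings that moved that median by over 0.1, with −1.85 and −1.33 on the common median and −1.53 and −1.05 after quantile normalization.

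Markers of other cells moved with genotype at 17 dpp. Of 10 tested pachytene markers, 9 fell in the mutants, and their summed signal was 1742 to 3608 on the mutant arrays and 60962 to 126215 on the wild-type arrays. On the mutant arrays 1 of the 10 was below the 40th percentile throughout. None of 9 spermatogonial and none of 9 Sertoli markers passed, but all of the Sertoli markers had positive differences (median 0.71), and the spermatogonial median was 0.82. Of 5 macrophage markers 1 rose (Csf1r, 0.90), with a median of 0.90, and the medians were 1.004 for 4 Leydig and 0.52 for 4 peritubular myoid markers, none of which passed. Of 8 leptotene to zygotene markers Dmc1 rose (0.99) and Meiob fell (−1.03). The summed Sertoli signal was 40836 to 55621 on mutant arrays and 25208 to 44050 on wild-type arrays, that of macrophage markers 5052 to 7773 on mutant and 2027 to 4171 on wild-type arrays, and that of Leydig markers 2118 to 6658 on mutant and 1394 to 3509 on wild-type arrays. The part of these shifts in the differences of the 9 genes was not tested.

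At 14 dpp none of the 9 genes passed the test. Of all tested genes 0.320% did, all lower in mutants, and with the set as a block it was 0.588%, again with none of the 9. With arrays weighted by their quality, which changed that count the most, 1948 probe sets were lower and 3409 higher, among them Trip13 lower and Atm higher. At an unadjusted p under 0.05, no gene of the 9 was called either. The groups overlapped for every gene, whereas 4.49% of all genes had every mutant array below every wild-type array and 2.26% the reverse. Differences ran from −0.44 for Mdc1 to 0.29 for Atm, and the median was −0.14 beside 0.00 for all genes. Pachytene markers were already lower in mutants at 14 dpp. Of 10 tested, 7 passed as falls (median −2.81), and 7 also did with the set as a block. On the mutant arrays of that age 4 of the 10 were below the 40th percentile throughout. No marker of the other cell types passed. The part of this shift in the differences of the 9 genes was not tested.

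Mdc1 gave 1299, 1248, 1439.6, 1258 and 1199 on the mutant arrays of 14 dpp and 1361, 1782 and 2176 on the wild-type arrays. The overlap came from 1 mutant array of set 2 and 1 wild-type array of set 1, and within each array set all mutant values were lower. The difference was −0.44 ± 0.24 (95% interval −0.95 to 0.08). Atr gave 5025, 4367, 5667, 5180.5 and 5058 on the mutant arrays and 5543, 5969 and 7019 on the wild-type arrays, with a difference of −0.29 ± 0.21 (interval −0.74 to 0.16). It was the other gene of the 9 with lower mutant values within each set, an arrangement found in 10.1% of all genes. The adjusted p of both was 0.99999 by limma, and 3 wild-type arrays limit what could be seen at this age.

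None of the remaining genes passed at 14 dpp. Trip13 gave −0.37 ± 0.27, and its values followed the array sets, with 2813 and 2606 in mutants and 3426 and 3200.2 in wild type on set 1 but 1519 to 1743 in mutants and 1541 in wild type on set 2. Topbp1 lay between 2878 and 3505 in mutants and between 3484 and 4167 in wild type, a difference of −0.20 ± 0.19. Chek1 had nearly equal geometric means of 917 in mutants and 919 in wild type, and so had Chek2 with 496 in mutants and 498 in wild type. Within each array set, however, every mutant value of Chek1 lay above every wild-type value. On set 1 these were 1113 and 1070 in mutants and 1043 and 1024 in wild type. On set 2 they were 740 to 948 in mutants and 726 in wild type. The share of all genes with that arrangement is not given here. Brca1 gave 0.02 ± 0.37, Hus1 −0.14 ± 0.31 and Atm 0.29 ± 0.32.

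Between 14 and 17 dpp, Mdc1 and Atr rose in the wild type, whereas in the mutants neither passed the test. In wild type the signal of Mdc1 averaged 12.06 ± 0.40 at 17 dpp (SD, n = 5) and 10.77 ± 0.34 at 14 dpp (n = 3) on the log2 scale, a rise of 1.30 ± 0.24 (2.46-fold, adjusted p = 0.00286, limma). In mutants it was 10.36 ± 0.21 at 17 dpp and 10.33 ± 0.10 at 14 dpp (SD, n = 5 each), a difference of 0.03 ± 0.21 (95% interval −0.42 to 0.47, adjusted p = 0.945). For Atr the wild-type rise was 1.05 ± 0.21 (2.07-fold, adjusted p = 0.00485), and the mutant difference was 0.15 ± 0.18 (interval −0.24 to 0.54, adjusted p = 0.611). On the common median the mutant differences were 0.36 for Mdc1 and 0.48 for Atr (adjusted p = 0.360 and 0.195, limma). The wild-type rises were then 1.66 and 1.41. After quantile normalization the mutant differences were 0.33 and 0.02 (adjusted p = 0.351 and 0.953, limma). The wild-type arrays of 17 dpp lay above all those of 14 dpp for both genes, which 7.74% of all genes showed. Both rises held with the set as a block (1.09 for Mdc1, adjusted p = 0.0111, and 0.96 for Atr, adjusted p = 0.0133), where 4.82% of all genes rose and 4.56% fell. Within set 1, with 1 wild-type array of 17 dpp, they were 0.82 and 0.64 and did not pass (adjusted p = 0.164 and 0.273). Without the arrays of set 3 they were 0.66 for Mdc1 and 0.55 for Atr, and neither passed (adjusted p = 0.0951 and 0.0813). The mean of the 3 Atr probe sets gave 0.82 (adjusted p = 0.0710), and the 2 dimmer ones gave 1.65 and −0.24 (adjusted p = 0.0818 and 0.652).

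Cell type markers moved with age as well. In wild type 8 of 10 pachytene markers rose (median 3.00), 6 of 9 spermatogonial and 6 of 9 Sertoli markers fell (medians −1.80 and −1.56), 2 of 8 leptotene to zygotene markers rose, and 2 of 4 Leydig, 2 of 4 peritubular myoid and 1 of 5 macrophage markers fell. The summed pachytene signal in wild type was 60962 to 126215 at 17 dpp and 10802 to 16190 at 14 dpp, and 2 of the 10 were below the 40th percentile on every wild-type array of 14 dpp. In mutants it was 1742 to 3608 at 17 dpp and 1397 to 2233 at 14 dpp, and there 1 pachytene marker and 1 macrophage marker rose and 1 Sertoli marker fell. With the set as a block 7 pachytene markers rose in wild type and no spermatogonial or Sertoli marker passed. The median of all genes between the ages in wild type was −0.41, and −0.05 on the common median. In mutants it was −0.26, and 0.07 on the common median. The part of these shifts in the age differences of the 9 genes was not tested.

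Ordered by mean level, Mdc1 and Atr were lowest in mutants of 14 dpp, then in mutants of 17 dpp, then in wild type of 14 dpp, and highest in wild type of 17 dpp. The lower neighbours in that order overlapped, and the wild type of 17 dpp stood clear of the rest. The test of the difference between the ages in the genotype effect gave −1.27 ± 0.32 for Mdc1 (adjusted p = 0.149, limma) and −0.90 ± 0.28 for Atr (adjusted p = 0.374). None of the 9 genes passed it, and 0.359% of all genes did. At an unadjusted p under 0.05 only these 2 of the 9 did. With the set as a block Mdc1 passed (−1.15 ± 0.26, adjusted p = 0.0324) beside 1.89% of all genes, and Atr did not (−0.80, adjusted p = 0.119). Mdc1 also passed once wild-type replicate 1 of 17 dpp, the only one of its group in set 1, was left out (−1.43, adjusted p = 0.0398). Within set 1 and without set 3, where that group has 1 array, the Mdc1 value was smaller in size (−0.79 and −0.65). Of 31 alternatives, Mdc1 passed in 3.

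Atm moved the other way with age. In wild type it gave 742, 742, 765, 546 and 389 at 17 dpp, against 1412, 1362 and 2137 at 14 dpp, with no overlap (as for 21.2% of all genes), a fall of 2.60-fold (−1.38 ± 0.32, adjusted p = 0.0107, limma). It was thus the 1 gene of the 9 that fell, beside 18.9% of all genes, and Mdc1 and Atr were the 2 that rose, beside 7.06%. The fall did not pass with the set as a block (−0.76, adjusted p = 0.106), within set 1 (−0.90, adjusted p = 0.277), without set 3 (−1.11, adjusted p = 0.0869), on the common median (−1.02, adjusted p = 0.0629), after quantile normalization (−0.88, adjusted p = 0.0625) or without wild-type replicate 3 of 14 dpp (−1.17, adjusted p = 0.0648). Brca1 passed as a fall in 3 of 32 alternatives. These were without wild-type replicate 1 of 17 dpp (−0.99, adjusted p = 0.0430), by the mean of its probe sets (−2.25, adjusted p = 0.0160) and with array weights (−1.04, adjusted p = 0.000627). With the set as a block Brca1 gave −0.14 (adjusted p = 0.814, limma). Leaving out that replicate, the only wild-type array of 17 dpp in set 1, put the rest of its group wholly in set 3. In mutants Atm gave −0.99 ± 0.28 (adjusted p = 0.0610) and Trip13 0.82 ± 0.23 (adjusted p = 0.0654), and no gene of the 9 passed on its brightest probe set, beside 1.76% of all genes. Every mutant array of 17 dpp lay below every one of 14 dpp for Atm, which held for 5.85% of all genes, and above it for Trip13, which held for 2.75%. Both lost most of that difference with the set as a block (−0.28 and 0.22). Leaving out mutant replicate 1 or 2 of 17 dpp, both of set 1, brought Atm, Chek1 and Trip13 past the threshold, leaving out wild-type replicate 1 of 17 dpp brought Atm and Trip13 past it, and leaving out wild-type replicate 3 of 14 dpp brought Trip13 past it.

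Taken probe set by probe set, 2 of the 22 passed at 17 dpp, beside 5.33% of all tested probe sets. They were the only one of Mdc1 and the brightest of Atr. Between the ages 5 of the 22 passed in wild type, beside 21.4% of all, and the 2 not yet named were dim probe sets of Brca1 that fell (−4.57 and −3.57). Their differences were −0.45 and 0.09 with the set as a block. In mutants 1 of the 22 passed, beside 1.92% of all, the dim probe set of Hus1 (−1.94, adjusted p = 0.0375, limma), and it did not pass with the block (−1.20, adjusted p = 0.476).

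**Figure D3:**
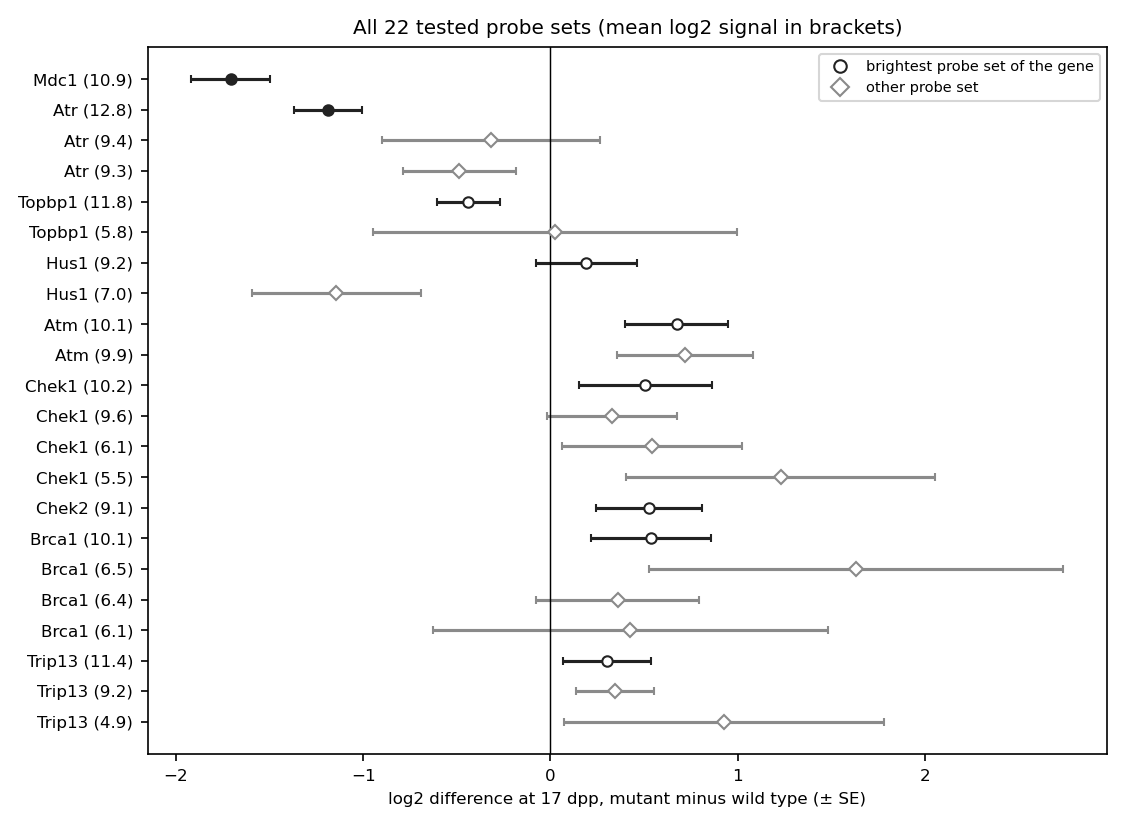
Log2 difference in signal at 17 dpp, mutant minus wild type, with standard errors, for the 22 tested probe sets of the 9 genes, each labelled with its mean log2 signal over all arrays. The filled symbols of Mdc1 and of the brightest Atr probe set, −1.71 and −1.19, mark the 2 that passed the test.

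Over the 18 arrays, and after each array set's mean was taken off, the genes whose signal most resembled that of Mdc1 were Fignl1, Ift80 and Mmachc, each with a Pearson correlation of 0.98. Those most like Atr were Bbs7, Ttc26 and Wdr35, also at 0.98. These are the 3 highest of 15307 genes in each case, and the arrays share their genotype and age groups, and the wild-type arrays of 17 dpp stand apart from the rest, so the correlations are given as a description. All 6 genes fell in mutants at 17 dpp, with differences of −1.24 for Fignl1, −1.93 for Ift80, −1.70 for Mmachc, −2.17 for Bbs7, −1.75 for Ttc26 and −1.72 for Wdr35, and they were picked for likeness to 2 genes that fell.

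A list of 50 further genes of the pathway had 46 members on the array with a probe set of their own, and 45 were tested. At 14 dpp none passed, the median difference was −0.09 and 28 of 45 were negative. At 17 dpp 1 passed, Cdkn1a, which encodes the cell cycle inhibitor p21. Its mean log2 signal was 8.77 in mutants and 7.52 in wild type, a rise of 1.25 ± 0.29 (adjusted p = 0.0125, limma). That call ended on the common median and when the arrays of that age were fitted alone. Without wild-type replicate 1 of 17 dpp 6 of the 45 passed (1 lower and 5 higher), and 2 did, both higher, without mutant replicate 2 or 4 or wild-type replicate 2 of that age. The median of the list at 17 dpp was 0.11, below the 0.26 of all genes, and 14 of 45 were negative.

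By role, none of the 12 factors that load or support ATR passed at 17 dpp, and their median was 0.21. Among them were Rpa1, of the protein that coats single-stranded DNA (−0.52, adjusted p = 0.156, limma), Tipin, of the fork protection complex (0.59, adjusted p = 0.0567), and Atrip, the partner that ATR needs (1.62 ± 0.89, adjusted p = 0.337). None of 6 break sensors passed (median 0.07), with Rad50, of the complex that recruits ATM, at 0.67 (adjusted p = 0.117). None of 12 chromatin mediators passed (median 0.08). H2ax, the histone that ATR phosphorylates and MDC1 binds, gave −0.998 ± 0.53 (adjusted p = 0.315), and Trp53bp1, whose protein is another reader of the damage mark, gave 0.06.

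None of 5 HORMA checkpoint genes passed (median −0.17). Hormad1, which recruits ATR to unsynapsed axes, gave −1.37 ± 0.69 (adjusted p = 0.288, limma), and Mad2l2 gave −1.74 ± 0.60 (adjusted p = 0.108). Of 10 effectors Cdkn1a rose, and the median was 0.50. With the set as a block 4 of the 45 fell (Rad9b, H2ax, Hormad1 and Mad2l2) and 7 rose (Tipin, Rad50, Brcc3, Brip1, Cdkn1a, Cdc25a and Wee1), beside the 11.4% and 14.4% of all genes given above. These genes, and those not past the test, were named with their values known. Between 14 and 17 dpp in wild type 7 of the 45 fell, beside 18.9% of all genes, and 2 rose, beside 7.06%. The 2 were Rpa1 (1.37 ± 0.23, adjusted p = 0.00166) and Hormad1 (2.40, adjusted p = 0.0415), of which only Rpa1 also passed with the set as a block (1.03, adjusted p = 0.0152). The falls depended on the setting, with 2 lower and 1 higher with the block, 0 lower and 4 higher on the common median, and 1 each way after quantile normalization. Leaving out 1 wild-type array changed the number passed in wild type to 3, 4 or 4 without replicate 1, 2 or 3 of 14 dpp, to 19 without replicate 1 of 17 dpp and to 5 without replicate 2, 3 or 5 of that age. Rpa1 was also the 1 gene of the list to pass in mutants, with a rise of 0.80 (adjusted p = 0.0493), beside 1.76% of all genes, and it did not pass with the block (0.52, adjusted p = 0.402). The call ended when any 1 array of 14 dpp, mutant replicate 3, 4 or 5 or wild-type replicate 2, 3 or 4 of 17 dpp was left out. Without mutant replicate 1 of 17 dpp 11 of the list passed in mutants, and without replicate 2 it was 7. Trp73 was on the array and too dim to be tested, and the list genes without a probe set of their own were not analysed here.

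**Figure D4:**
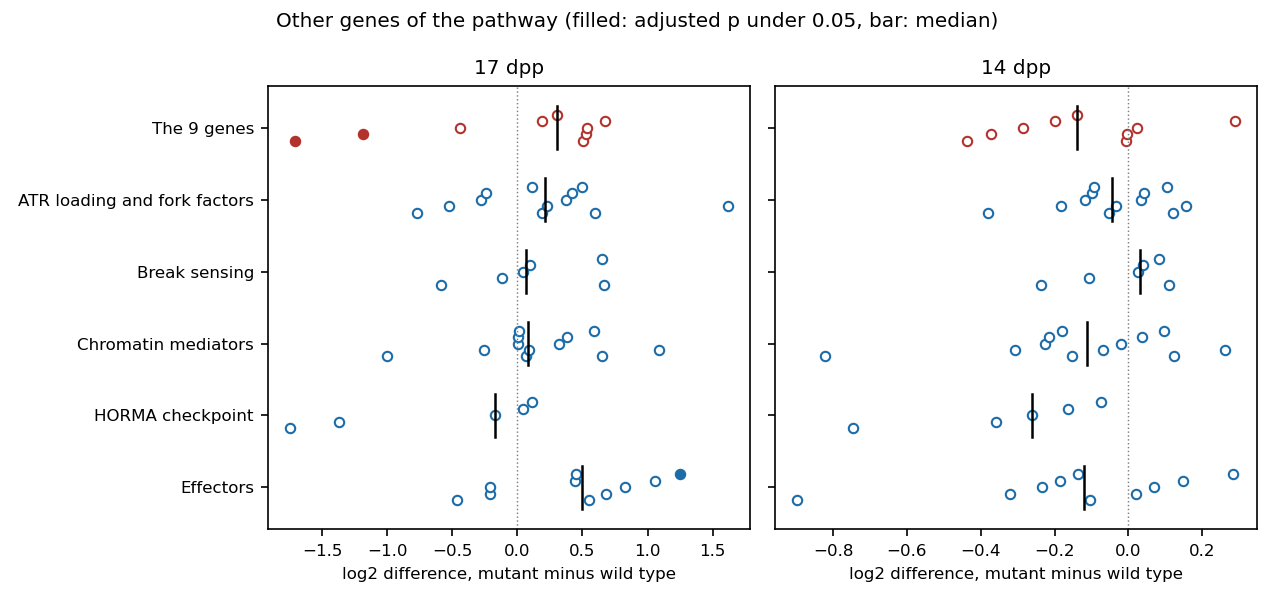
Log2 difference in signal, mutant minus wild type, at 17 dpp (left) and 14 dpp (right; the axes differ) for the 9 genes (red) and for the 45 tested genes of the pathway list by role (blue). Filled points passed the test and black bars are medians. At 17 dpp Mdc1, Atr and Cdkn1a are filled, and at 14 dpp no point is.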

How the data were processed

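Whole testis RNA was measured on 18 Affymetrix 430 2.0 arrays. The deposited values are MAS5 signal intensities on a linear scale, which the authors computed in the GCOS software of Affymetrix (series' design text). The submitters' processing notes give MAS5 as the tool, with no version. After 2% of values were trimmed from each end, the array means were 500.0 on 11 arrays and 394.6 to 394.9 on the other 7 (set 3). No step between arrays was added. Probe set annotation came from the platform table and was matched to RefSeq by gene symbol for promoters (9 of 9 genes).

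Probe sets were kept for testing when 3 or more arrays showed them above that array's 40th percentile. Log2 values were fitted with limma 3.58.1 (R 4.3.3) with 1 mean for each group and all 18 arrays in the fit (14 residual degrees of freedom, or 12 when the array set was a fixed block). Variances were moderated with an intensity trend, and two-sided p-values were adjusted by Benjamini-Hochberg over 34764 probe sets. The procedure was tested on simulated data with independent noise and no array set effect, so that test does not bear on the array sets. Sets were split at β-actin ratios of 1.9 and 10. Within-set values share the spread of all arrays, so a lone array was assumed to vary like the others.

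The members, the pathway and marker lists, the array sets and the naming rule were chosen with earlier results of these data known. All 9 members were named, with Mybl1, the pathway genes past the test by genotype and the 3 genes most correlated with each member called at 17 dpp. Other genes named were chosen after their values were seen. Alternatives covered the array sets, replicate numbers, scaling, filter, pseudocount, weights, the methods' linear model and leaving out each array. Same-numbered mutant and wild-type arrays deviated from their group means with correlations of 0.283, 0.355 and 0.385 at 14 dpp, each pair within 1 array set, and of −0.227 to 0.777 at 17 dpp. By the rule used, the numbers counted as paired at 14 dpp and not at 17 dpp. The main fit nevertheless had no pairing, and no alternative paired the arrays of 14 dpp alone. The array sets had not been taken off, and the −0.227 came from the 1 pair that crossed sets. The correlations therefore cannot tell pairing from a shared array set.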

Additional observations from a re-analysis of the deposited data

How the results depend on the processing

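At 17 dpp Mdc1 kept its direction in all 33 alternatives (−1.87 to −1.08) and its call in 32, the exception being within set 1. Atr kept its direction in all 33 (−1.35 to −0.63) and its call in 30, the exceptions being within set 1, without set 3 and the mean of its probe sets. Leaving out 1 array ended neither call (highest adjusted p of 0.00159 by limma, for Atr), and 2 genes passed each time. The other changes were in counts, and their cause was not tested.

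Genotype at 14 dpp gave 68 probe sets on group means, 128 with the set as a block, 31 within set 2, 233 without set 3, 177 from the arrays of that age alone, 5357 with array weights (1948 lower, 3409 higher) and 33 by the methods' model at its threshold of 0.025. Array weights brought 2 of the 9 genes past the threshold (Trip13 lower, Atm higher), and leaving out 1 array gave 24 to 78 probe sets and 0 genes. Genotype at 17 dpp gave 1854 probe sets (1341 lower, 513 higher), 6550 with the block (2799 lower, 3751 higher), 990 within set 1, 4006 within set 3 (2110 lower, 1896 higher) and 862 from that age alone. The common median gave 1341 lower and 114 higher, and quantile normalization 1493 lower and 321 higher. Of the 9 genes 2 passed, but 6 with the block, 0 within set 1, 5 within set 3 and 1 without set 3. Leaving out wild-type replicate 1 gave 3947 probe sets and replicate 5 gave 1206, the range.

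The difference between ages in the genotype effect gave 71 probe sets, 416 with the block, 0 within set 1, 481 without set 3, 235 with a pseudocount of 32, 413 with array weights, 4 by the methods' model, and 0 to 133 leaving out 1 array. Of the 9 genes 1 passed with the block, 2 with array weights, and 0 to 1 leaving out 1 array. Age in wild type gave 7438 (5750 lower, 1688 higher), 2654 with the block, 759 within set 1, 3661 without set 3, 3716 on the common median (1315 lower, 2401 higher), 17593 with array weights, 2493 by the methods' model, and 1286 to 12474 leaving out 1 array. Quantile normalization gave 2604 lower and 2480 higher, and a common trimmed mean 4164 and 2138. Of the 9 genes 3 passed, but 0 within set 1 and without set 3, and 2 to 4 leaving out 1 array. Age in mutants gave 667 (520 lower, 147 higher), 238 within set 1, 2269 without set 3, 205 from mutants alone, 1724 on the common median (329 lower, 1395 higher), 2146 with the pseudocount, 12473 with array weights, 212 by the methods' model, and 97 to 6951 leaving out 1 array. Quantile normalization gave 410 lower and 563 higher, and a common trimmed mean 315 and 171. Of the 9 genes 2 passed on the common median and with the pseudocount, 4 with array weights, 1 on any probe set, and 0 to 3 leaving out 1 array.

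The replicate block joined all arrays of the same replicate number, over both ages and genotypes. It was thus not a pairing at 14 dpp alone. It gave 57 probe sets by genotype at 14 dpp, 39 for the difference between ages and 1856 for age in mutants, and it changed no call of the 9 genes.

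Groups of 3 to 5 arrays, with ages and array sets unevenly mixed, limit these comparisons. Age can be compared within set 1 alone, where wild type of 17 dpp has 1 array.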
